A study of Phaseolus coccineus with 4 samples.

Results

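Chromosomes 2, 3 and 7 carried 7636 of the 20728 regions at which WOX9-like ChIP signal was found in both replicates in the micropylar part of scarlet runner bean seeds, cut off from the rest. They were selected on the measured density of such shared regions, 52.4 to 54.6 per Mb, against 34.5 per Mb over the other 8 chromosomes. A member is any peak on these chromosomes in either of the 2 peak lists, 12599 of 34876 peaks in replicate 1 and 8557 of 23218 in replicate 2. Peaks that overlapped by 1 bp or more were merged, and a region with a peak in each list was called shared. The merge gave 12805 regions on the 3 chromosomes, of which 4882 were found in replicate 1 alone and 287 in replicate 2 alone.

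WOX9 proteins belong to the WUSCHEL-related homeobox family of plant transcription factors, which bind DNA through a homeodomain. In Arabidopsis, WOX9 is known to act early in embryogenesis, in the cells that give rise to the suspensor and root pole, and in keeping meristem cells dividing. The scarlet runner bean (Phaseolus coccineus) has long been studied for its large suspensor, which lies with the embryo at the micropylar end of the seed. In the related common bean, genes are known to lie mostly toward the chromosome ends, and the middles of the chromosomes are rich in repeats.

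The series holds 2 WOX9-like ChIP samples and 2 input samples of cultivar Hammond's Dwarf Red Flower, wild type as far as the labels say, all from globular-stage seeds of 1.6 to 2.5 mm, 6 days after hand pollination. The antibody (10 ug) was raised against a peptide of the WOX9-like protein, and the input samples received none. No second tissue, stage or genotype is among these samples, so the only comparison between samples is that of the ChIP replicates, which the labels do not say came from separate plants. A ChIP-seq peak is a stretch with more sequenced fragments than the control, and its fold enrichment is the authors' value of the summit over the local control background. Each fold thus contains a control, named noAb in the replicate 1 peak names and input in those of replicate 2. Whether these are the 2 input samples is not stated, and folds of the replicates may rest on different kinds of control. The input samples were not analysed here. The peak names end in Pv442, and positions are given on that assembly, whose name is not spelled out in the sources used here. The Pv prefix is taken to stand for common bean, Phaseolus vulgaris. Genes, exons and sequences at these positions were not analysed here. Total depth is unknown. The median number of ChIP fragments at a summit was 77 on these chromosomes in replicate 1, against 76 in the whole list, and 45 against 44 in replicate 2.

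The density that chose the chromosomes was close to equal among them. Chromosome 7 held 2186 shared regions on 40.04 Mb, or 54.6 per Mb. Chromosome 2 held 2653 on 49.7 Mb, or 53.4 per Mb, and chromosome 3 held 2797 on 53.4 Mb, or 52.4 per Mb. Together the 3 chromosomes made up 27.9% of the span of the 11 chromosomes and held 37.4% of the shared regions on them. They were not the densest set, since chromosome 9, with 61.7 per Mb, stood above all 3. Chromosome 6, with 49.7 per Mb, came next below chromosome 3. In the single lists the 3 chromosomes held 83.9 to 91.6 peaks per Mb in replicate 1 and 58.0 to 61.6 in replicate 2, and in the replicate 1 list chromosome 6, with 84.8, passed chromosome 3. These values describe the choice of the chromosomes and were not tested.

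The 3 chromosomes were denser than each of the other 8 at their ends, and denser than most of them in their middles. The outer parts were taken as 25% of the span at each end. There, chromosomes 2 and 3 had 66.8 and 67.0 shared regions per Mb. The other 8 ran from 38.8 to 66.5 there, the highest on chromosome 1, whose overall density was 41.9. In the replicate 1 list, chromosome 1 had 2971 peaks in its outer parts on a span of 51.4 Mb. Chromosome 3 had fewer, 2882, on a longer span of 53.4 Mb, so its lead did not hold in that list. The 2 ends of a chromosome also differed, and the first 10% of chromosome 3 had 49.4 shared regions per Mb. In the middle 50% of the span, chromosomes 2 and 3 had 40.03 and 37.7 per Mb, whereas chromosome 1 had 17.3. Chromosome 7 had the highest outer density of all 11, 79.7 per Mb, and 29.5 in the middle. Of the other 8 chromosomes, chromosome 6 and chromosome 9 were denser in the middle than these 3, with 43.5 and 73.4 per Mb, and the remaining ones lay between 8.37 and 17.3. Because density chose the chromosomes, this order is a description.

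**Figure D1:**
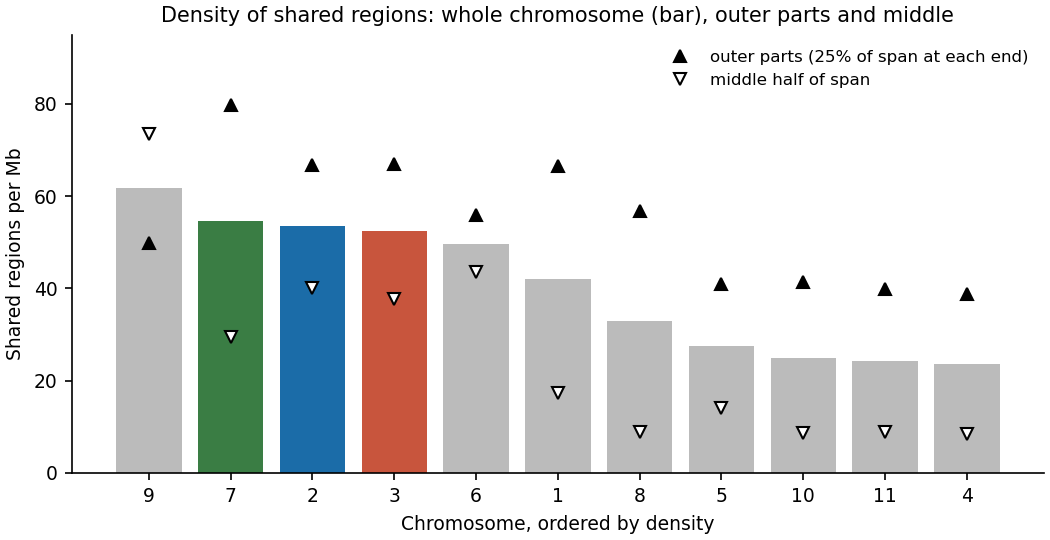
Shared regions per Mb on each of the 11 chromosomes (bars), in the outer parts (filled triangles) and in the middle 50% of the span (open triangles). Chromosomes 7, 2 and 3 (coloured) follow chromosome 9, and their middles, at 29.5 to 40.03 per Mb, lie above those of all the other chromosomes but 6 and 9.

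The outer parts held 62.5% of the shared regions of chromosome 2 (95% Wilson interval 60.7 to 64.4), 64.0% of those of chromosome 3 (62.2 to 65.7) and 73.0% of those of chromosome 7 (71.1 to 74.8). Even positions would give 50%. Over all 11 chromosomes the share was 69.1%, and on the other 8 it ran from 40.5% to 86.6%. Chromosomes 2 and 3 thus lay below the share over all 11. The intervals cover counting error only, and neighbouring regions are not independent. Chromosome 7 had the highest share of the 3. Each list alone gave nearly the same shares, from 62.6% to 62.7% on chromosome 2, 63.8% to 64.3% on chromosome 3 and 72.1% to 72.7% on chromosome 7.

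Profiles in 1 Mb bins followed each other closely in the 2 replicates. Across the 142 whole bins of the 3 chromosomes, peak numbers of the lists had a Spearman rho of 0.98 and a Pearson r of 0.98, given as a description because the bins share the 2 libraries. The median bin held 47.5 shared regions, against 23.0 over the 368 bins of the other 8 chromosomes. Bins with 60 or more shared regions numbered 19 on each of chromosomes 2, 3 and 7. These were 38.8%, 35.8% and 47.5% of their bins, where the share over all 11 chromosomes was 26.7%. They held 65.8%, 63.0% and 74.2% of the shared regions of their chromosomes, against 57.8% over all 11. Such bins held 74.9% of the shared regions on chromosome 6 and 66.7% on chromosome 9, so this is not particular to the 3. Bins with 10 or fewer shared regions numbered 4 on chromosome 2, 6 on chromosome 3 and 5 on chromosome 7. These were 8.16%, 11.3% and 12.5% of their bins, where 22.4% of all bins on the 11 chromosomes were as sparse. Chromosome 9 had 0 such bins. The shares of dense and sparse bins follow in part from the choice of the chromosomes by density. The limits of 60 and 10 were set after the profiles were known.

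On chromosome 2 the dense bins formed several separate stretches. The first ran from 0 to 3 Mb with 312 shared regions, and its bin from 1 to 2 Mb, the densest of the chromosome, held 127 shared regions, 194 replicate 1 peaks and 147 replicate 2 peaks. A second stretch from 28 to 33 Mb held 416 and lay inside the chromosome, away from both ends. The longest ran from 39 to 49 Mb with 921 shared regions, or 92.1 per Mb, and included the bins from 46 to 47 Mb (114), 47 to 48 Mb (110) and 44 to 45 Mb (106). A single dense bin from 23 to 24 Mb, with 66 shared regions, lay just beyond the sparsest part of the chromosome. Between the first stretch and the middle, density dropped to 10 in the bin from 5 to 6 Mb.

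Chromosome 3 had 1 long dense stretch, all of it on the far side. From 35 to 50 Mb, 15 bins in a row held between 71 and 132 shared regions each, 1459 in all or 97.3 per Mb. This stretch alone held 2205 replicate 1 peaks and 1602 replicate 2 peaks. Its 5 densest bins followed each other from 44 to 49 Mb, with 112, 112, 132, 118 and 106 shared regions. The near end, in contrast, held no dense bin, and the highest there was 59 from 2 to 3 Mb. In steps of 10% of the span, density rose from 8.80 per Mb between 30% and 40% to 115 between 80% and 90%, and it was 76.7 in the last step.

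Chromosome 7 was dense at both ends. Near the start, 9 bins in a row from 1 to 10 Mb held 782 shared regions, or 86.9 per Mb, and the densest of them, from 2 to 3 Mb, held 131 shared regions, 207 replicate 1 peaks and 149 replicate 2 peaks. At the other end, the stretches from 28 to 35 Mb and from 37 to 40 Mb held 596 and 239. The bins from 32 to 33 and 33 to 34 Mb held 98 and 103. No bin of this chromosome was empty, and the lowest held 3, from 19 to 20 Mb.

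**Figure D2:**
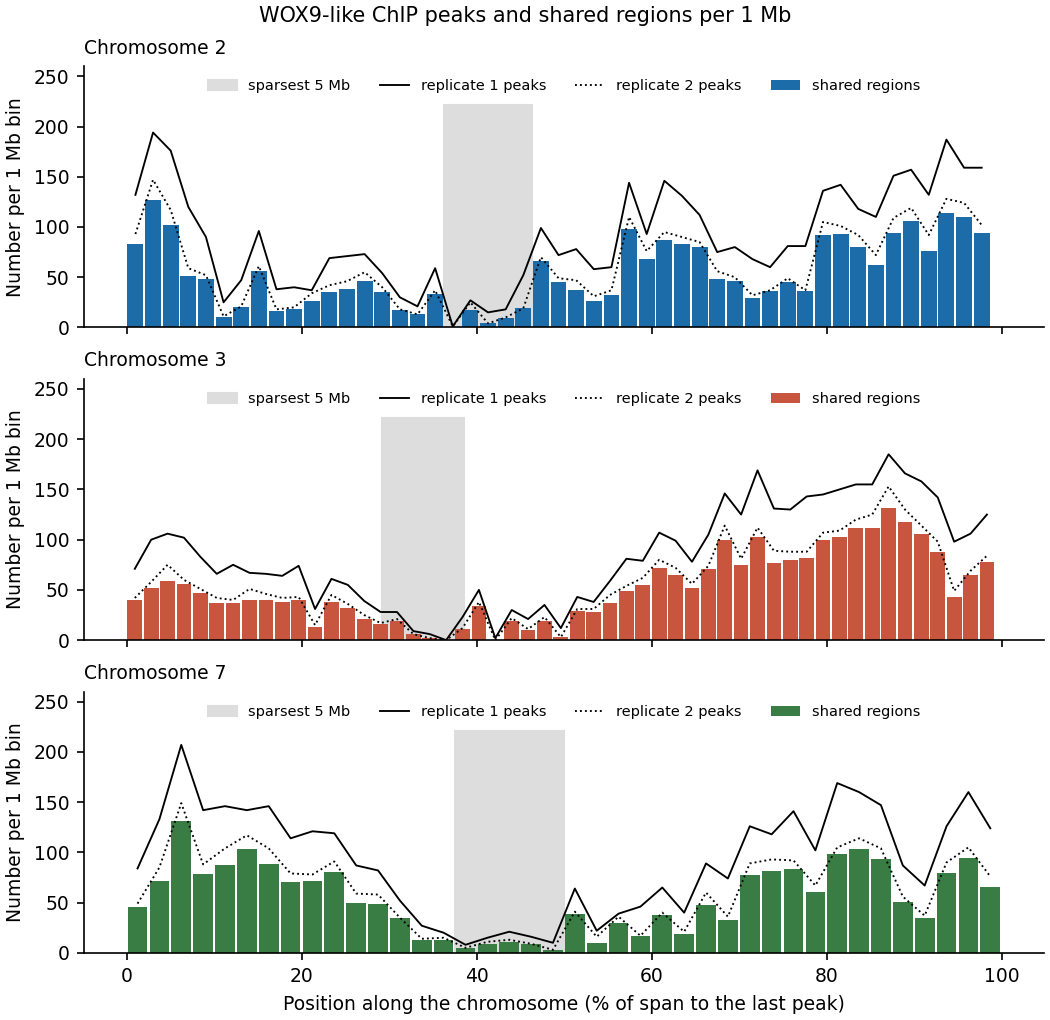
Shared regions (bars), replicate 1 peaks (solid line) and replicate 2 peaks (dotted line) per 1 Mb bin along chromosomes 2, 3 and 7, with position as percent of the span to the last peak. The grey band marks the 5 Mb with the fewest shared regions, 49, 33 and 37 from top to bottom, and the highest bars reach 127, 132 and 131.

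Each chromosome had a sparse stretch inside it, placed before its midpoint. The 5 Mb with the fewest shared regions ran from 18 to 23 Mb on chromosome 2, with 49 shared regions, 113 replicate 1 peaks and 59 replicate 2 peaks. On chromosome 3 it ran from 15.6 to 20.6 Mb, with 33 shared regions, 60 replicate 1 peaks and 35 replicate 2 peaks. On chromosome 7 it ran from 15 to 20 Mb, with 37, 70 and 41. These are 9.80, 6.60 and 7.40 shared regions per Mb. The sparsest 5 Mb of the other 8 chromosomes held between 5 and 168. How much of these stretches could be mapped is unknown, so few peaks and little mappable sequence cannot be told apart. Centromere positions are not among the values used here, and the sides of the sparsest 5 Mb stand in for arms below.

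The sides differed on chromosomes 2 and 3 and were close on chromosome 7. On chromosome 2 the side before the centre of the sparse stretch had 38.6 shared regions per Mb and the side after it 63.8, a ratio of 1.65. On chromosome 3 the values were 34.9 and 61.3, a ratio of 1.76. Both lists had the same order, with 68.6 and 104 peaks per Mb on chromosome 2 in replicate 1 and 44.4 and 71.3 in replicate 2. On chromosome 3 the lists gave 62.2 and 95.03 in replicate 1 and 39.5 and 67.5 in replicate 2. On chromosome 7 the first side was slightly denser, with 57.5 and 52.3 per Mb, and with the sparsest 3 Mb as the divide the sides had 54.7 and 54.5.

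On each of the 3 chromosomes the denser side had the higher share of replicate 1 peaks with a partner in replicate 2. On chromosome 3 it was 65.2% there, against 56.4% on the thin side. On chromosome 2 the shares were 62.0% on the denser second side and 57.0% on the first, and on chromosome 7 they were 61.4% on the denser first side and 59.1% on the second. Chromosomes 1, 4, 6, 8, 9 and 10 had the same order, and chromosomes 5 and 11 the reverse. A shared region needs a partner, so the density of a side and its partner share are not independent. This order is a description. Strength had no single order. The median of the lower of the 2 folds was 4.84 on the first and 4.74 on the second side of chromosome 2, 4.69 and 4.70 on chromosome 3, and 4.92 and 4.82 on chromosome 7. The share with a fold of 10 or more in both replicates was 8.84% on the first and 7.47% on the second side of chromosome 2, so lower on the denser side. On the other two chromosomes it was higher on the denser side, with 7.92% on the first and 9.74% on the second side of chromosome 3 and 9.53% and 8.91% on chromosome 7. Median folds of all replicate 1 peaks on chromosome 3 were 4.23 on the first and 4.51 on the second side. None of these differences between sides was tested.

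Of all replicate 1 peaks on the 3 chromosomes, 61.3% (interval 60.4 to 62.1) had a partner, against 60% over the whole list. The share was 60.4% on chromosome 2, 63.0% on chromosome 3 (interval 61.6 to 64.4) and 60.1% on chromosome 7, and on the other 8 chromosomes it ran from 57.2% to 60.9%. The share on chromosome 3 was the highest of the 11. Of replicate 2 peaks, 96.6% (interval 96.2 to 97.0) had a partner, against 96.2% over the whole list. Partner shares in replicate 1 were 61.2% in the outer parts and 61.3% in the middle 50% of the span, which holds dense bins too. The shares by chromosome lie near the background and are no result about the 3 chromosomes. By local density they differed more. Replicate 1 peaks had a partner in 45% of 180 cases in bins with 10 or fewer shared regions, and in 53.6% of 906 in bins with 11 to 30. The share was 56.9% of 3405 in bins with 31 to 59 and 64.3% of 7963 in bins with 60 or more. Over the other 8 chromosomes the same classes gave 49.9%, 58.8%, 58.2% and 60.9%. In the sparsest 5 Mb of the 3 chromosomes the share was 49.4% of 243. The bins and windows were themselves classed by their number of shared regions, so these shares are a description.

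Neighbouring shared regions were mostly a few kb apart, with long empty stretches between groups. The median gap between the end of a region and the start of the next was 5368 bp on chromosome 2 (quartiles 1192 and 17869 bp), 5850 bp on chromosome 3 (1298 and 17319 bp) and 5469 bp on chromosome 7 (1294 and 17961 bp). Over the other 8 chromosomes it was 6757 bp, with a range of 5224 bp on chromosome 6 to 9324 bp on chromosome 5. The mean gap of the 3 chromosomes, 18023 bp, was far above their median of 5525 bp, since a small number of gaps were very long. Spacing follows in part from density, and so from the choice of the chromosomes.

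Gaps of 1000 bp or less made up 22.4% of all gaps on chromosome 2, 21.3% on chromosome 3 and 21.7% on chromosome 7, where the share over the 11 chromosomes was 20.3%. Regions joined by such gaps formed 1258 groups of 2 or more and took in 38.2% of the shared regions of the 3 chromosomes, against 34.4% on the other 8. The largest groups were chosen after their values were seen. One on chromosome 2 held 6 regions within 8807 bp, from 922130 to 930936, with lower folds of 2.66 to 10.5. One on chromosome 7 held 6 within 11013 bp, from 37266197 to 37277209, with lower folds of 3.25 to 17.7. On chromosome 3 the largest held 5 within 5925 bp, from 31109260 to 31115184, with lower folds of 1.95 to 14.1. Strong and weak regions thus lay side by side in each group.

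**Figure D3:**
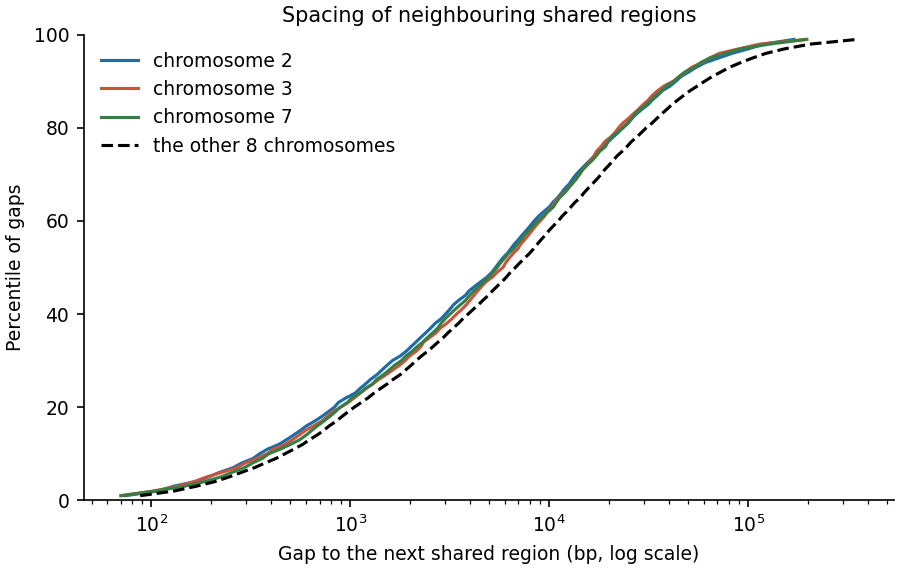
Percentiles of the gap between neighbouring shared regions (bp, log scale) on chromosomes 2, 3 and 7 (lines) and over the other 8 chromosomes (dashed). The 3 lines nearly coincide, with medians of 5368, 5850 and 5469 bp, and the dashed line lies to their right, with a median of 6757 bp.

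Gaps of 100 kb or more numbered 80 on chromosome 2, 71 on chromosome 3 and 58 on chromosome 7 and took up 32.3%, 33.0% and 29.99% of their spans, against 50.5% over the other 8. The longest lay in or near the sparse stretches. On chromosome 3, shared regions were absent from 17144550 to 18798215 (1.65 Mb), from 18821008 to 20193547 (1.37 Mb) and from 21979967 to 23258160 (1.28 Mb). These stretches held 5, 1 and 3 replicate 1 peaks without a partner and no replicate 2 peak. On chromosome 2 the longest ran from 17933056 to 19199246 (1.27 Mb) with 1 unshared peak in each list, and a second from 4985922 to 5761804 (776 kb) lay far from the sparse middle, followed by one from 19922354 to 20483561 (561 kb). On chromosome 7 they were shorter, 779 kb from 15288907 to 16068058, 652 kb from 19208168 to 19859674 and 460 kb from 12801128 to 13261163.

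Shared regions on the 3 chromosomes were about as strong as elsewhere. The median lower fold was 4.76 on chromosome 2 (quartiles 3.44 and 6.84), 4.69 on chromosome 3 (3.39 and 6.89) and 4.88 on chromosome 7 (3.54 and 7.23). On the other 8 chromosomes the medians ran from 4.68 to 4.92. Shared regions with a fold of 10 or more in both replicates were 7.88% on chromosome 2 (interval 6.91 to 8.96), 9.33% on chromosome 3 (8.31 to 10.5) and 9.19% on chromosome 7 (8.05 to 10.5), where 8.78% of all shared regions reached it. The 671 such regions of the 3 chromosomes were 8.79% of theirs. This share was near the background, and so a high number of regions did not come with a high share of strong ones here.

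At shared regions of these chromosomes, median folds were somewhat higher in replicate 1. They were 5.81 in replicate 1 and 5.35 in replicate 2 on chromosome 2, 5.87 and 5.20 on chromosome 3, and 5.97 and 5.26 on chromosome 7. Over all peaks of the 3 chromosomes the order was the other way, with medians of 4.40 in replicate 1 and 5.04 in replicate 2. Spearman rho of fold between the replicates was 0.70, 0.72 and 0.72, across 2653, 2797 and 2186 regions, as a description with regions not independent. The median distance between the summits of the 2 replicates was 37, 36 and 37 bp, against 35 bp over the other 8 chromosomes. The local control background, by which each fold is divided, had the same list median on all 3 chromosomes, 17.0 in replicate 1 and 8.60 in replicate 2.

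Within the 3 chromosomes, strength changed little with local density. In the 57 bins with 60 or more shared regions the median lower fold was 4.76 over 5071 regions, and in the 45 bins with 31 to 59 it was 4.84 over 1917. In the 25 bins with 11 to 30 it was 4.60 over 479 regions, and in the 15 bins with 10 or fewer it was 4.90 over 80. The share with a fold of 10 or more in both replicates went from 5.00% in the sparsest bins through 7.10% and 8.09% to 9.35% in the densest. The first of these shares is over 80 regions only and so rests on very few strong ones. On the other 8 chromosomes the same classes gave 9.17%, 9.51%, 8.76% and 8.49%, so this order was not seen there, and the difference was not tested. Median backgrounds of the shared regions on the 3 chromosomes were 17.0 in the sparsest and 18 in the densest bins in replicate 1, and 7.77 and 8.60 in replicate 2, whose part in the result was not tested. Across the 130 bins with at least 10 shared regions, Spearman rho of density with median fold was 0.14, and by chromosome it was -0.08, 0.18 and 0.35.

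Widths were alike on the 3 chromosomes. The median shared region spanned 552 bp on chromosome 2 (quartiles 408 and 805 bp), 553 bp on chromosome 3 (411 and 786 bp) and 558 bp on chromosome 7 (409 and 815 bp). Each was above the highest of the other 8, 550 bp on chromosome 8, by a margin far smaller than the spread among regions. Median peak widths were 408, 418 and 409 bp in replicate 1 and 353, 360 and 364 bp in replicate 2, against 385 to 416 bp and 339 to 358 bp on the other 8 chromosomes. Regions of 1500 bp or more were 5.35% on chromosome 2 (interval 4.56 to 6.28), 5.01% on chromosome 3 (4.26 to 5.88) and 5.44% on chromosome 7 (4.57 to 6.48), where 4.66% of all shared regions were as wide. Of the 9 regions named below as widest, 8 held a single replicate 1 peak. Several replicate 2 peaks were joined under 1 replicate 1 peak in 510 of the 7636 shared regions of the 3 chromosomes. Over all 11 chromosomes this held for 1309 of 20433, a similar share, so it is no trait of the 3. Wider regions were stronger, with a Spearman rho of 0.50 between width and lower fold across the 7636 regions. Over the other 8 chromosomes it was 0.48. A region that joins several peaks spans all of them and takes their highest fold, so the measures are not independent.

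**Figure D4:**
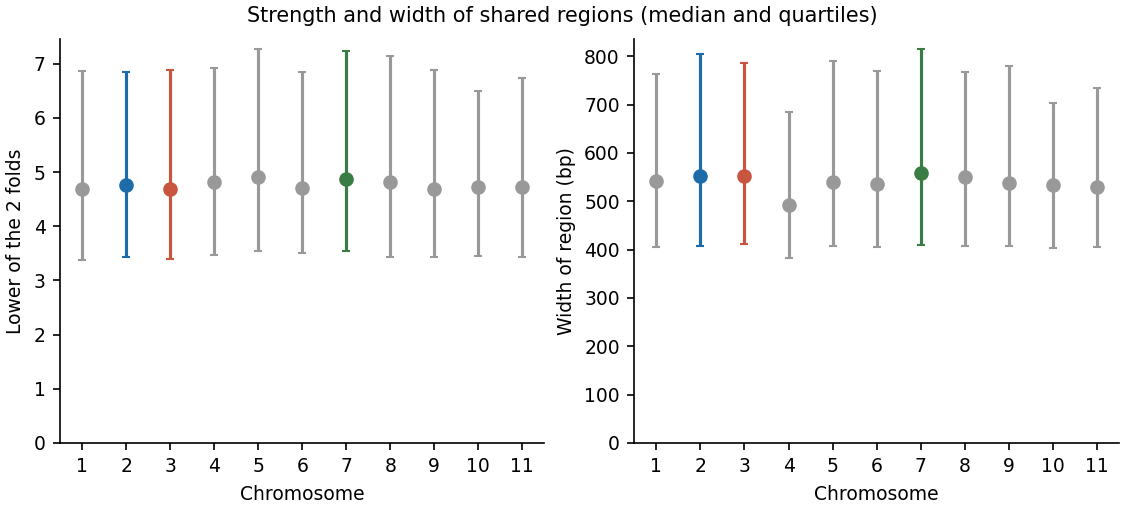
Median and quartiles over shared regions of the lower of the 2 folds (left) and of region width in bp (right) on each chromosome, with chromosomes 2, 3 and 7 coloured. Medians of fold lie between 4.68 and 4.92 on every chromosome, and the widths of the 3 chromosomes, 552 to 558 bp, lie within the quartiles of all others.

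The widest regions lay in dense bins on chromosomes 2 and 3. On chromosome 2 the widest spanned 5836 bp, from 1228145 to 1233980, in its densest bin, with folds of 13.5 in replicate 1 and 10.5 in replicate 2. On chromosome 3 the widest spanned 4794 bp, from 46499587 to 46504380, again in the densest bin, and joined 3 replicate 1 peaks and 4 replicate 2 peaks, with folds of 14.1 and 13.6. The next there, 4717 bp from 47105920 to 47110636, had 16.8 and 14.9. On chromosome 7 the widest, 5633 bp from 5543273 to 5548905, was also among its 5 strongest, with folds of 19.1 and 26.1. A region of 5422 bp from 10105662 to 10111083, in a bin with 50 shared regions, joined 5 replicate 2 peaks under 1 replicate 1 peak and had folds of 13.9 and 13.7. The other 4 regions of the rule for wide regions spanned 4178 to 5089 bp.

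The 5 strongest shared regions of each chromosome, ranked by the lower of the 2 folds, came from dense and from thin surroundings. Of the 15, 9 lay in bins with 60 or more shared regions and 10 in the outer parts, and their bins held from 17 to 131 shared regions. Of all shared regions of the 3 chromosomes, 67.2% lay in such bins and 66.0% in the outer parts. These counts are thus near the background and are no result about strong regions. Summits lay at most 91 bp apart between replicates, within 50 bp in 13 of the 15. Over all shared regions of the 3 chromosomes the median distance was 37 bp, and 84.7% lay within 100 bp. Close summits were thus common among all shared regions. The rank by fold also favours a low control background: in replicate 1 it was below the list median at 14 of the 15 and in replicate 2 at 12. Ranked by the lower −log10 q instead, 4 of the 15 were again among the 5 strongest of their chromosomes.

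On chromosome 2 the first by rank lay from 10138483 to 10139177, with 26 shared regions in its bin and the nearest neighbours 21535 and 40625 bp away. Its fold was 22.5 in replicate 1 (271 fragments, exact 95% Poisson interval 19.9 to 25.4) and 36.2 in replicate 2 (191 fragments, 31.3 to 41.7). The second, from 1374607 to 1375547 in the densest bin, had 22.5 (interval 19.9 to 25.3) and 20.1 (17.3 to 23.3), and its next neighbour was 480 bp away. The third, from 19414118 to 19414804, stood inside the sparsest 5 Mb, with 17 shared regions in its bin, and had 19.7 (interval 17.4 to 22.2) and 22.3 (19.2 to 25.9). Strong signal in both replicates was therefore present in the sparse middle. The fourth, from 37700661 to 37701625, had 19.6 and 36.0, the widest gap between replicates among the 15, over a replicate 2 background of 2.87, the lowest of that list. The fifth, from 23147181 to 23147898, had 18.5 and 23.0.

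On chromosome 3 the Poisson intervals of the replicates overlapped at all 5 strongest regions. The first, from 9807929 to 9808706 on the thin side, had a fold of 18.6 in replicate 1 (281 fragments, interval 16.5 to 20.9) and 20.1 in replicate 2 (192 fragments, 17.4 to 23.1). Its bin held 38 shared regions, and its neighbours were 14206 and 44248 bp away. The second, a 2065 bp region from 45717755 to 45719819 in the long dense stretch, had 17.996 and 21.1, with summits 3 bp apart. The others ran from 34023181 to 34024662 with 17.7 and 20.2, from 47074140 to 47074753 with 19.0 and 17.6, and from 47500464 to 47501928 with 19.5 and 17.4. Mean folds of the 5 were between 18.3 ± 0.930 and 19.5 ± 2.17 (SD, n = 2), the narrowest range of the 3 chromosomes.

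On chromosome 7 the first by rank, from 24705933 to 24707583, had folds of 24.9 in replicate 1 (324 fragments) and 24.6 in replicate 2 (193 fragments), a mean of 24.7 ± 0.168 (SD, n = 2). Its bin held 38 shared regions, outside the dense stretches, and the next region began 158 bp after it. The second, from 2597291 to 2598255 in the densest bin, had 22.3 (interval 19.9 to 24.9) and 33.1 (28.9 to 37.6). The third, from 1372503 to 1373328, had 20.2 and 20.9. The fourth was the widest region named above, with 345 fragments in replicate 1, the most of the 15, and summits 1 bp apart. The fifth, from 28816560 to 28817330, had 22.4 and 17.9. In all, the intervals of 4 of the 15 did not overlap, 2 on chromosome 2 and 2 on chromosome 7, and all 4 were higher in replicate 2. The intervals hold the ChIP counting error alone, without that of the control, and reads from PCR without molecular identifiers may repeat 1 molecule.

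**Figure D5:**
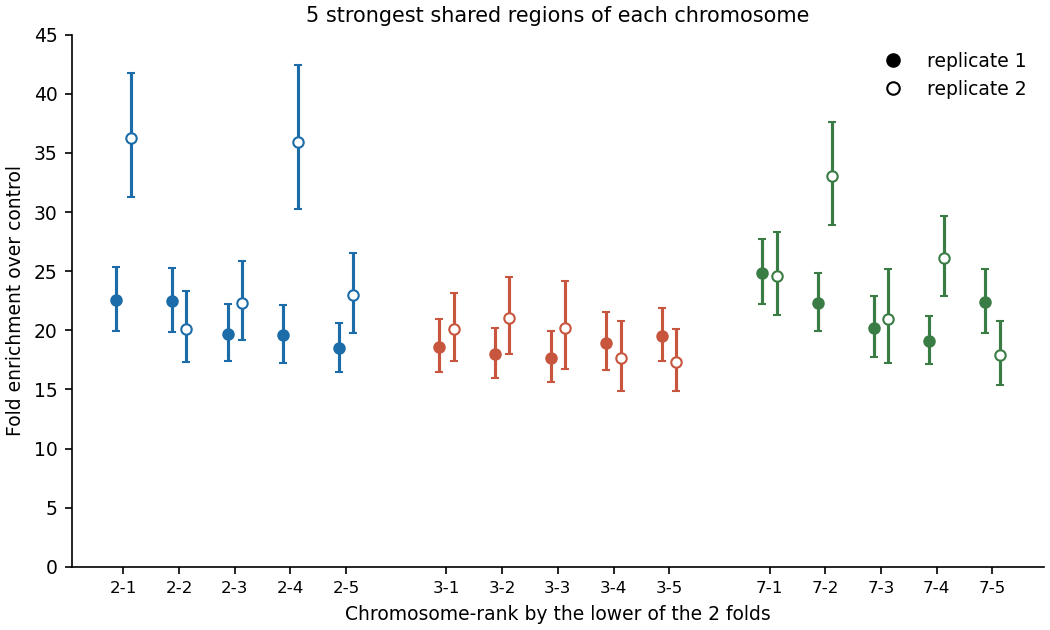
Fold enrichment over control of the 5 strongest shared regions of chromosomes 2, 3 and 7 in replicate 1 (filled) and replicate 2 (open), with exact 95% Poisson intervals of the ChIP fragments. Replicate 2 lies clear of replicate 1 at 2 regions each of chromosomes 2 and 7, and on chromosome 3 all intervals overlap.

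Among the strongest shared regions of the whole series, the share on the 3 chromosomes was near their share of all shared regions. Of the 200 shared regions with the highest lower fold, 72 lay on chromosomes 2, 3 and 7 (36.0%, interval 29.7 to 42.9), and of the first 1000, 376 (37.6%, interval 34.7 to 40.6). Of all shared regions of the 11 chromosomes, 37.4% lay there.

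Peaks without a partner were mostly weak and narrow. On chromosomes 2, 3 and 7 there were 1763, 1658 and 1461 such peaks in replicate 1, with median folds of 3.15, 3.20 and 3.18 and median widths of 293, 288 and 294 bp. Peaks with a partner there had median folds of 5.78, 5.85 and 5.93. A fold of 10 or more without a partner was reached by 8, 6 and 2 peaks of replicate 1 and by none of replicate 2. In replicate 1 the highest of these, on chromosome 3 from 52846379 to 52846750, reached 14.0-fold enrichment (118 fragments, interval 11.6 to 16.8) over a background of 7.43, the lowest of that list, and was 1144 bp from the nearest replicate 2 peak. On chromosome 2 it lay from 46675792 to 46676197 with 12.6, and on chromosome 7 from 38764631 to 38765523 with 12.04, each 747 bp from a replicate 2 peak. In replicate 2 the strongest had 5.63, 6.23 and 5.78 and rested on 24, 32 and 31 fragments, on chromosome 2 from 45271870 to 45272074, on chromosome 3 from 37969533 to 37969772 and on chromosome 7 from 7554006 to 7554232.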

How the data were processed

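Per the submitters' processing notes, the tools were Bowtie 0.12.7, SAMtools 0.1.18 and MACS2, with no settings stated. The authors deposited 1 peak list per ChIP sample, each with a fold enrichment (a ratio over the local control), its p-value and q-value as −log10, and a whole-number score, which was not used. Per the deposited peak names, the control was called noAb in replicate 1 and input in replicate 2. Peaks on scaffolds, 483 and 329, were left out of the values by chromosome.

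Peaks overlapping by 1 bp or more were merged into regions, which took the highest-fold peak of each list (Python 3.11.15, pandas 2.3.3, scipy 1.17.1). Span means the distance from the first base to the last peak end. Regions were binned by their midpoint, in whole 1 Mb bins, and the sparsest 5 Mb was found in steps of 0.1 Mb. Shares carry 95% Wilson intervals. Summit fragments are whole counts that give both the deposited fold and p to within 0.002 in −log10 p, with ChIP counts multiplied by 0.99444 in replicate 1, and fitted 100% of peaks of both lists. Gap, window, overlap and count steps were tested on simulated data. The regions named are the 5 strongest and 3 widest shared regions, 5 densest bins and 3 longest gaps of each chromosome, and the strongest unshared peak of each list. The chromosomes, measures and limits were chosen with earlier results of these data known. No test across regions was run, so no difference from the other chromosomes carries a p-value. The alternatives tried were the rule of sharing, thresholds on q and fold, each list alone, lists of equal length, and the sizes of bin, window and outer part.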

Additional observations from a re-analysis of the deposited data

How the results depend on the processing

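For chromosomes 2, 3 and 7 together, 23 of 54 alternative values stayed within their limits (1.5 times for a density or count, the 95% interval of the value otherwise) and 31 moved. For each chromosome alone, 77 of 162 stayed. Some moves were built into the setting. A narrower outer part holds fewer regions, and a fold limit of 5 raises the median fold, whatever the data. The tally therefore does not measure sensitivity alone. Values were labelled only as staying or moving, so a reversal could not be counted. With a fold of at least 5 required in both lists, density was 24.7 per Mb, the densest bin held 69, the median gap was 14130 bp, the median lower fold 7.23, the median width 700 bp and the partner share of replicate 1 peaks 67.2%. When 50% of both peaks had to overlap, the values were a median gap of 7276 bp, a fold of 4.91, a width of 517 bp and a partner share of 49.9%. Summits within 100 bp gave 6972 bp, 4.89, 533.5 bp and 52.2%. A −log10 q of at least 5 gave 5962 bp, 4.98, 568 bp and 59.4%. Lists of equal length gave a partner share of 80.5%. Outer parts of 20% and 30% at each end held 55.3% and 75.4% of the shared regions. Ranked by the lower −log10 q, 4 of the 15 strongest regions were again among the 5 strongest of their chromosomes, 1 on chromosome 2, 0 on chromosome 3 and 3 on chromosome 7.

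With a single list, which holds all its peaks, density was 59.8 to 88.0 per Mb, the densest bin 153 to 207, the median gap 3469 to 4387 bp, the median fold 4.40 to 5.04, the median width 358 to 412 bp, the outer share 65.96% to 66.0% and the share on the first side 32.4% to 33.3%. Chromosome 9 stayed the densest under the main setting and the 6 alternatives for sharing, thresholds and lists, and chromosome 3 fell to the fifth place in the replicate 1 list alone. Chromosomes 2 and 3 were denser after their sparse stretch, and chromosome 7 before it, under these and with windows of 3 and 10 Mb. No paired analysis was possible because no values of the inputs, whose numbers match those of the ChIP samples, were analysed here. Depth in total is unknown, and the precision of a fold rests on its summit fragments and on the control.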
